A study of Mus musculus with 4 samples.

Results

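The Sprouty and SPRED proteins form a family of intracellular inhibitors of the RAS and ERK pathway, the relay by which receptor tyrosine kinases carry growth factor signals to the nucleus. Sprouty proteins act at the level of the receptor adaptors and RAF, and SPRED proteins, which carry an N-terminal EVH1 domain, bring the RAS GTPase-activating protein neurofibromin to the membrane. Several members are themselves transcribed in response to ERK, so that the pathway induces its own brake. The probes were taken from a microarray study of MA-10, a clonal mouse Leydig tumor cell line that makes steroids. The members were the genes Spry1, Spry2, Spry4, Spred1, Spred2 and Spred3, found by their symbol in the array annotation. All 6 genes were on the array, with 7 probes between them, of 26423 probes in all. Spred2 was read by 2 probes and each of the other genes by 1.

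Cells treated with 100 μmol/L cordycepin, an analog of adenosine, for 3 hours were compared with vehicle control cells, with 2 one-colour arrays in each group. Both groups were the same clonal line in the same medium with serum, so the arrays speak for 1 line at 1 dose and 1 time. The dose is that of the paper and of the treatment protocol, while the extraction protocol in the labels gives another concentration, by mass. The paper names DMSO as the vehicle and the sample labels name PBS. Neither source says that the duplicates were separate cultures, so the p-values speak for the scatter of these particular arrays, part or all of it possibly technical. Of 9 Leydig cell markers on the array, 7 were detected on both control arrays, Hsd3b1 and Nr5a1 among them, while the probe of Cyp11a1, the first enzyme of steroid synthesis, was listed at 0 on every array. The markers of other testis cells that were detected on both control arrays numbered 4 of 7 for Sertoli cells, 2 of 6 for germ cells, 2 of 4 for macrophages, 2 of 4 for endothelial cells and 0 of 3 for peritubular cells. Among all these markers 2 were called lower in cordycepin by limma, Nr5a1 with a log2 ratio of -1.13 (adjusted p = 0.039) and the Sertoli cell marker Sox9 with one of -2.51 (adjusted p = 2.2e-08), and their part in the results was not tested. The summed Sertoli cell markers read 4695 and 3297 in the control against 5007 and 4845 in cordycepin, and the summed Leydig cell markers 38385 and 27306 against 26929 and 25953. Most of the Sertoli sum was Inha, at 3548 and 2512 in the control against 4213 and 4117 in cordycepin. The other Sertoli markers detected on both control arrays, Dhh, Gata1 and Sox9, had log2 ratios of -0.27, -0.08 and -2.51. Total RNA was read from whole cultures, so that a fall in every cell cannot be told apart from a fall in some of the cells.

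Intensities are given as the authors normalized them. A probe is called detected where the authors' detection p was under 0.05, which held for 12193 to 13415 probes per array. The lowest detected intensity lay between 19.5 and 25.2 on the 4 arrays. The log2 intensities of the 24319 probes above 0 on all arrays were tested with limma, and a probe is called lower or higher at a Benjamini-Hochberg adjusted p under 0.05. The spread between duplicates was pooled over all probes, which gave each probe the same standard error of 0.41 on the log2 scale, so that the p follows the size of the ratio alone and the gap between the duplicates of one probe does not enter it. The number of arrays limits the precision. Where 2 arrays and 2 others do not overlap, an exact two-sided permutation test can give no p under 0.33. The share of all probes whose groups did not overlap was not counted. Undetected probes of Spry1, Spred2 and Spred3 were among those that did not overlap.

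Of the 7 probes, 4 were detected on both control arrays, namely those of Spry2, Spry4, Spred1 and 1 of Spred2. The other 3, for Spry1, Spred3 and the dimmer probe of Spred2, were detected on no array. In cordycepin-treated cells Spry2 and Spred1 were lower, Spry4 and Spred2 stayed near the detection limit in both groups, and no member was higher. In limma 3 of the 6 probes tested were called lower and 0 higher, against 13.0% lower and 1.19% higher among all probes tested. The third called probe, that of Spred3, was below detection on every array. With detected probes fitted alone, 2 of 4 member probes were lower, against 3680 of 13317 probes. The 7th probe, 1 of the Spred2 probes, was at 0 on a control array and was left out of the test.

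**Figure D1:**
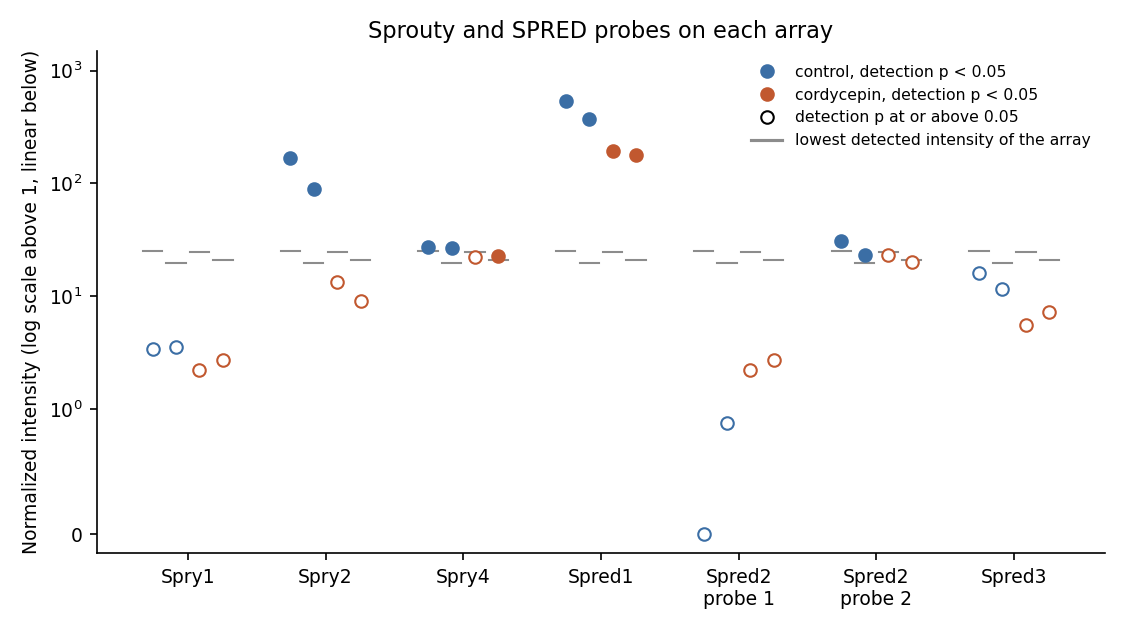
Normalized intensity of each Sprouty and SPRED probe (vertical axis, logarithmic above 1 and linear below) on the 2 control arrays (blue) and the 2 cordycepin arrays (orange), with filled points for a detection p under 0.05 and open points otherwise. Grey bars mark, for each array, its dimmest detected probe, and the Spry2 points pass from above them in the control to below them in cordycepin, while the Spred1 points stay above them in both groups.

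The promoters of Spry2 and Spred1 are shown because these were the detected members that fell. Each run is the RefSeq sequence of mouse build GRCm38.p6 from 250 bases before the annotated transcription start to 50 bases after it, 5′ to 3′ on the strand of the gene, at chr14:105896770-105897069 on the minus strand for Spry2 and at chr2:117120821-117121120 on the plus strand for Spred1. Capitals mark the ETS core CGGAA and the GC box GGGCGG, each searched on both strands. The core is bound by ETS factors, a class of transcription factors, only some of which ERK phosphorylates.
Spry2: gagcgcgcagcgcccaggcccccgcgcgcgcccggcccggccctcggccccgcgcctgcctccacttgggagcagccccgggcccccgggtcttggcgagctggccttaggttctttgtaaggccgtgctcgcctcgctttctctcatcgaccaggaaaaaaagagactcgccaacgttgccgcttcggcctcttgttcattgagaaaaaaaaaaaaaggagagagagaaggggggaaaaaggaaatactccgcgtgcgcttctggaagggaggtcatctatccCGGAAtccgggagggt
Spred1: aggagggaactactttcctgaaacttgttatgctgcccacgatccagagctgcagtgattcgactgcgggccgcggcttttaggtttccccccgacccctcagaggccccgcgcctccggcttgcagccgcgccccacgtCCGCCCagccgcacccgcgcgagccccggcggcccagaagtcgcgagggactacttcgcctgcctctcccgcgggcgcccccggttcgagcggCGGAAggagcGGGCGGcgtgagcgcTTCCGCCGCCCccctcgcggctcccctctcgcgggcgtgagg
With positions counted from 1 at the transcription start and negative before it, the Spry2 window held 1 ETS core, first base at 35, and 0 GC boxes. The Spred1 window held 2 ETS cores, at -17 and 9, and 3 GC boxes, at -110, -7 and 14, none of which overlapped an ETS core. Of the 32851 promoter windows in the reference table, 29.9% held an ETS core and 35.7% a GC box on either strand. Such matches are descriptions of the letters and do not show a bound site. The windows of the other members in the table held 2 ETS cores for Spred2 and 0 for Spry1 and Spred3. No window of the 5 matched members held a TATA box (TATAAA, in 13.6% of all windows), an AP-1 site (TGACTCA, in 5.20%) or an E-box (CACGTG, in 7.15%) on either strand. The core of a cyclic AMP response element (TGACG, in 20.8%) was held by the Spred2 window alone. The Spry2 and Spred1 windows were 62.7% and 72.3% G and C, against a median of 52.7% over all windows.

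Spry2 encodes an inhibitor that binds the ubiquitin ligase CBL and the adaptor GRB2. Its probe read 168 and 88.8 on the control arrays and 13.3 and 9.09 on the cordycepin arrays. Both control arrays detected it and neither cordycepin array did, and the groups did not overlap. The mean fell from 129 ± 56.2 to 11.2 ± 3.00 (SD, n = 2 arrays each). Set against the dimmest detected probe on each cordycepin array, Spry2 was at least 5.41-fold lower. The log2 ratio of the measured values was -3.47 (95% confidence interval -4.27 to -2.67, adjusted p = 1.8e-15 from limma). Both cordycepin readings were below detection, so that ratio describes the readings. The 5.41-fold puts the dimmest detected probe in their place and is not a measured fold. It would be smaller if the limit of the Spry2 probe itself lay higher. The control duplicates of Spry2 lay further apart, as a ratio, than those of any other member tested. Of all probes tested, 0.806% had a lower ratio than Spry2. Ranked within each array, which no scaling of an array can alter, the Spry2 probe stood above 68.0% and 65.6% of all probes on the control arrays and above 43.0% and 36.1% on the cordycepin arrays.

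Spred1, whose loss in humans causes Legius syndrome, a disorder of overactive RAS signalling, was the brightest probe of the family on each array and the only member detected on all 4. Its probe read 540 and 370 on the control arrays and 192 and 179 on the cordycepin arrays. Each cordycepin array was thus below either control array. The mean fell from 455 ± 120 to 186 ± 9.29 (SD, n = 2 each), 2.41-fold lower. The log2 ratio was -1.27 (95% confidence interval -2.07 to -0.47, adjusted p = 0.015 from limma). Of all probes tested 10.97% had a lower ratio, and of the probes detected on both arrays of a group 18.1%. The call was lost without cordycepin array 1 (adjusted p = 0.26) and without cordycepin array 2 (adjusted p = 0.36). The ratio stayed below 0 under each of the 5 other scalings of the arrays, from -1.59 to -0.44, and was called under all of them. The rank of Spred1 on the array fell less than that of Spry2, from above 79.2% and 79.1% of all probes in the control to above 76.3% and 76.0% in cordycepin.

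The change of Spry2 relative to Spred1 can be read within each array, where the scaling cancels. The log2 of the Spry2 reading over the Spred1 reading was -1.68 and -2.06 on the control arrays and -3.85 and -4.30 on the cordycepin arrays. The groups did not overlap, and the mean difference was -2.20. With Spry2 raised to the lowest detected intensity where it was undetected, the difference was -1.17, and the groups still did not overlap. An exact two-sided permutation test gave p = 0.33, the smallest that 2 arrays against 2 can give. Both probes thus changed unequally in the readings, but the difference could not pass this test at 2 arrays a group.

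Spry4 encodes an inhibitor that acts on RAS and RAF activation and is, in mouse embryos, a target of FGF signalling. Its probe read 27.5 and 26.6 on the control arrays and 22.2 and 22.7 on the cordycepin arrays. The groups did not overlap, but every value lay close to the lowest detected intensity of its array, and 1 of the cordycepin arrays did not detect the probe. The log2 ratio was -0.27 (95% confidence interval -1.07 to 0.53, adjusted p = 0.91 from limma). The duplicates of Spry4 lay closer together than those of the other detected members, with SDs of 0.595 and 0.357. The methods' t-test, which uses the duplicates of each probe alone, gave a p before adjustment of 0.011 for Spry4, 0.023 for Spry2 and 0.045 for Spred1, and after adjustment 0.32, 0.32 and 0.37. Under other scalings its ratio ran from -0.59 to 0.56, so that its direction depended on the scaling.

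Spred2, which like Spred1 brings neurofibromin to RAS, was read by 2 probes that disagreed in brightness. The brighter probe (mMR030017) read 30.9 and 23.1 on the control arrays and 23.3 and 20.0 on the cordycepin arrays. The groups overlapped, and both control arrays but neither cordycepin array detected it, the detection p in cordycepin being 0.055 and 0.052. Its log2 ratio was -0.31 (95% confidence interval -1.10 to 0.49, adjusted p = 0.88 from limma), and its sign too depended on the scaling, with values from -0.63 to 0.52. The dimmer probe (mMC020465) read 0 and 0.888 in the control against 2.22 and 2.73 in cordycepin, far under the detection limit of every array, and carries no level for Spred2.

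Spred3, the SPRED protein that lacks a functional form of the domain by which its relatives bind the receptor KIT, was not detected on any array. Its probe read 16.03 and 11.5 in the control against 5.56 and 7.27 in cordycepin. Both cordycepin readings were below both control readings, and limma called the difference of the undetected readings (log2 ratio -1.10, adjusted p = 0.0497), which is just inside the threshold. No fold is given, since both groups lay under the detection limit. With all values raised to the lowest detected intensity the call was gone (adjusted p = 0.95), and it was lost as well without either cordycepin array (adjusted p = 0.72 and 0.30), without control array 1 (0.069) and with raw intensities that had not been multiplied by the authors' constants (0.12). Spry1, which in mice restrains RET signalling in the developing kidney, was likewise undetected, its probe reading 3.43 and 3.55 on control arrays and 2.22 and 2.73 on cordycepin arrays (adjusted p = 0.60 from limma). Spry3, the remaining Sprouty gene, is not one of the 6 members and was looked at after the values of the others were seen. It read 52.7 and 32.0 in the control against 18.9 and 21.8 in cordycepin, with a log2 ratio of -1.01 that did not pass (adjusted p = 0.081).

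**Figure D2:**
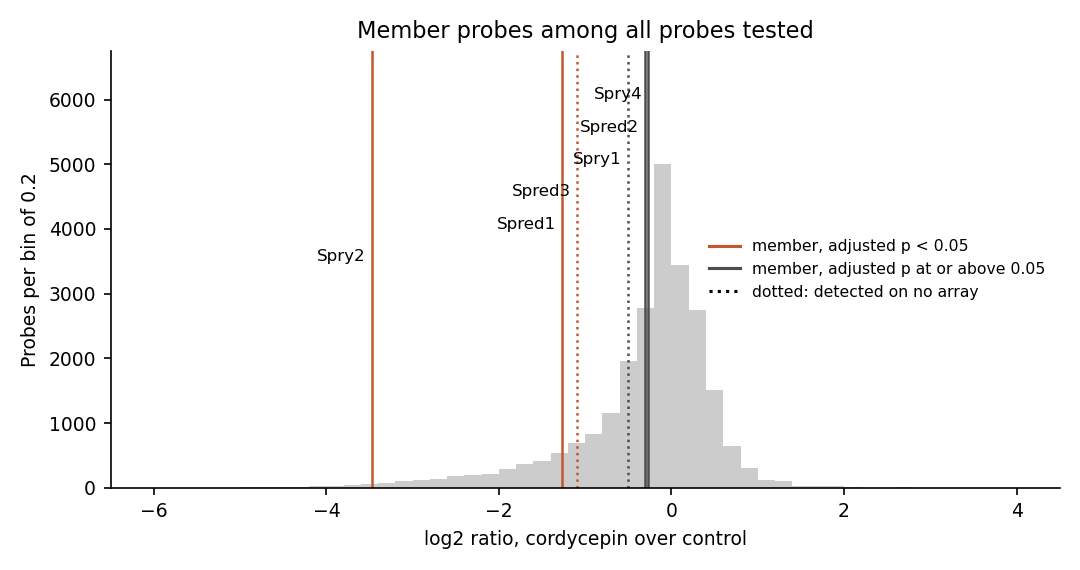
Number of probes (vertical axis, bins of 0.2) by their log2 ratio of cordycepin over control (horizontal axis) for all 24319 probes tested, with lines at the member probes, orange where called and dotted where detected on no array. Spry2 lies at -3.47 in the far lower tail and Spred1 at -1.27, while the lines of Spry4 and Spred2 lie at -0.27 and -0.31, near the bulk of the probes.

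The scaling of the arrays bears on all small ratios. As deposited, control array 2 was dimmer than control array 1 by a median of 0.50 on the log2 scale, whereas for the cordycepin pair this gap was 0.03. The median probe had a log2 ratio of -0.10. It was 0.24 where arrays were centred on their medians, 0.13 after quantile normalization of raw intensities, and -0.42 where ribosomal protein genes served for the centring. Centring moves every probe by one amount, and with arrays centred on their medians Spry2 stood at -3.13 and Spred1 at -0.93. Centred on the median of the detected probes alone, a setting chosen after the data were seen, the median probe stood at 0.55 and 8575 of 13317 probes were called higher. Spry4 and Spred2 lay near that median, at 0.56 and 0.52, and were among the probes called higher, while Spry2 and Spred1 were called lower.

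**Figure D3:**
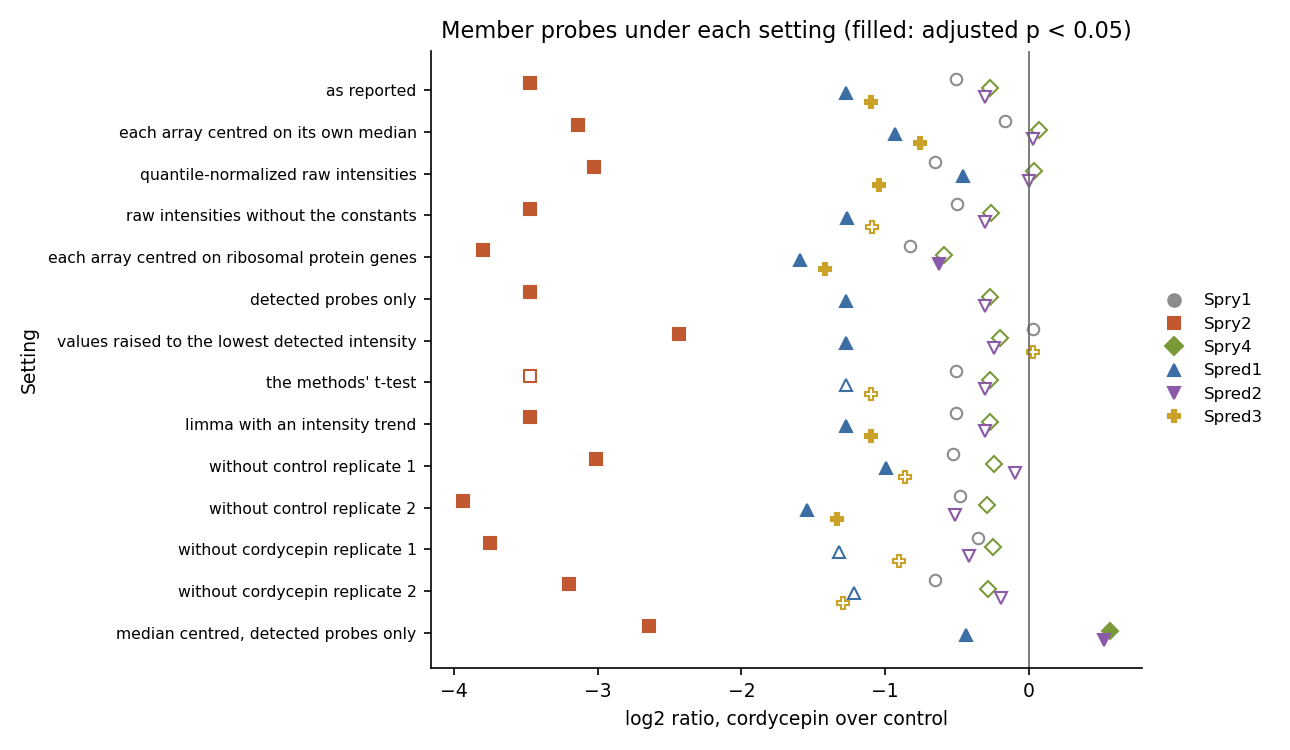
Log2 ratio of cordycepin over control (horizontal axis) of the 6 member probes tested, under the reported setting and each alternative (rows), filled where the adjusted p was under 0.05. The Spry2 squares stay between -3.93 and -2.43 and the Spred1 triangles between -1.59 and -0.44 in every row, while the Spry4 and Spred2 points fall on both sides of 0.

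Genes whose 4 readings ran most like those of a member were sought by the Euclidean distance of log2 intensities, each gene centred on its own mean over the 4 arrays, among 11282 other genes detected on both arrays of a group. Closest to Spry2 were Zfp759, a zinc finger gene, at a distance of 0.0908, Hexim2, which encodes an inhibitor of the elongation kinase P-TEFb, at 0.194, and Fzd7, a Wnt receptor gene, at 0.196. Only 5 genes lay within 0.25 of Spry2. Neither cordycepin array detected Spry2, Zfp759 or Hexim2, so these distances rest in part on readings below detection and their order carries little weight. Fzd7 was detected on both cordycepin arrays, its readings being 7210 and 4175 on the control arrays against 658 and 467 on the cordycepin arrays. It was picked for its likeness to Spry2, so its fall does not bear on the size of the Spry2 fall. Closest to Spred1 were Ehf, an ETS factor gene, at 0.0169, the tyrosylprotein sulfotransferase gene Tpst2 at 0.0275 and Trim23 at 0.0311, and 758 genes lay within 0.25 of it. For Spry4 the closest genes were Abca17, Fignl2 and Crabp1, and for Spred2 they were Nr1h4, Upp2 and Fbxw5, with 276 and 2047 genes within 0.25. Neither cordycepin array detected Spred2 or Upp2, and only 1 detected Spry4 and 1 Abca17. The distances from Spry4 and Spred2 thus also rest in part on readings below detection. With 4 arrays in 2 groups, likeness reflects little more than the size of the difference and the gaps between duplicates.

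The pathway on which these inhibitors act was read through lists of its genes, each gene by its brightest probe and by the same fit over all probes. Over the lists, 140 of 154 genes were tested, of which 52 were lower, 0 higher and 88 did not pass. Among all 18478 genes tested 14.6% were lower and 0.942% higher, and among the 11283 genes detected on both arrays of a group 22.1% were lower and 0.505% higher. The detected genes, in the lists as among all genes, include some that entered through the control arrays alone, a choice that favours lower calls. The median log2 ratio was -0.52 over the listed genes and -0.13 over all genes. After median centring of the arrays 17 listed genes were higher, and with quantile-normalized raw intensities 22 were. Raw intensities without the constants gave 0 higher listed genes and centring on the ribosomal protein genes gave 1, so the count of higher genes depended on the scaling.

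Of 13 receptor tyrosine kinase genes tested, 5 were lower, with a median log2 ratio of -0.51. Leaving out control array 2 gave 8 lower receptors, and leaving out cordycepin array 1 or 2 gave 2 or 1. Egfr, the receptor of epidermal growth factor, read 886 and 573 in the control against 206 and 197 in cordycepin, a log2 ratio of -1.82. The receptors of fibroblast growth factors Fgfr2 and Fgfr3 had log2 ratios of -1.75 and -1.14. Of 18 ligand genes 7 were lower, among them Pdgfb, a chain of platelet-derived growth factor, at least 7.42-fold, Fgf9, a growth factor of the developing testis, at least 2.59-fold, and Gdnf, a ligand of RET, with a log2 ratio of -2.30. The ligand genes that fell include 4 that neither cordycepin array detected, namely Pdgfb, Egf, Fgf9 and Fgf18. Without cordycepin array 1, and likewise without cordycepin array 2, 3 ligand genes were lower.

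Of 16 genes of adaptors and RAS activators 6 were lower. Among them Frs2, the docking protein of FGF receptors, had a log2 ratio of -2.13, and Sos1, the exchange factor that loads RAS, was at least 2.22-fold lower. Of 10 genes of RAS GTPase-activating proteins 2 were lower, Dab2ip (log2 ratio -1.40, detected on only 1 control array) and Rasal2 (log2 ratio -1.28). That is 20.0% of those tested and 28.6% of those detected, near the 14.6% and 22.1% of all genes. The count was 5 without control array 2 and 0 without either cordycepin array. Nf1, the neurofibromin gene through which SPRED proteins act, was not called. It read 27.5 and 20.4 in the control against 23.3 and 20.9 in cordycepin, where 1 array detected it. These values lie near the lowest detected intensity, so a fall of Nf1 could hardly have been read. Of 12 genes of RAF, MEK and ERK and their scaffolds 3 were lower. Among them were the scaffold genes Ksr1, with a log2 ratio of -1.52, and Cnksr3, which was at least 3.37-fold lower. The share lower was 25.0% of those tested and 30.0% of those detected, against 14.6% and 22.1% of all genes. In this list 5 genes were lower without control array 2 and 1 without either cordycepin array.

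Of 19 genes of Sprouty partners and regulators 4 were lower, a share of 21.1% of those tested, and 3 of the 15 detected were lower, a share of 20.0%, near the 22.1% of all detected genes. Siah1a, whose product is a ubiquitin ligase of the class that degrades Sprouty2, read 234 and 159 in the control against 13.3 and 14.5 in cordycepin, at least 8.52-fold lower. Dyrk1a, a kinase that binds Sprouty2, was at least 8.19-fold lower. Cblb, a relative of the ligase CBL, had a log2 ratio of -2.49. Without control array 2 the list held 9 lower genes.

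Of 14 other feedback inhibitors of receptor tyrosine kinase signalling 7 were lower and 7 did not pass, and of the 7 detected on both arrays of a group 4 were lower. Errfi1, an inhibitor of the epidermal growth factor receptor, read 424 and 251 in the control against 13.3 and 10.9 in cordycepin, at least 14.4-fold lower. Dusp4, a phosphatase of ERK, read 213 and 170 in the control against 31.1 and 27.3 in cordycepin, a log2 ratio of -2.71. Il17rd, also known as Sef, was at least 4.32-fold lower. Dusp5, Dusp6 and Dusp7 were called lower as well, but were detected on no array, as Spred3 was. Of 22 growth factor induced transcription genes 9 were lower, led by Myc, Junb and Ier2 with log2 ratios of -5.27, -4.49 and -4.22. Myc read 1168 and 664 in the control against 21.1 and 24.5 in cordycepin, where 1 array detected it. Its ratio thus rests in part on a reading below detection.

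Of 10 genes that share the EVH1 domain or its fold with SPRED proteins 3 were lower, Smek1, Smek2 and Wasl, with log2 ratios of -1.83, -1.75 and -1.19. The SPRY domain genes share letters with the Sprouty symbols but belong to another protein family, and all 6 of those tested were lower, with a median log2 ratio of -1.59. Among them Spsb1, a substrate receptor of ubiquitin ligases, read 770 and 567 in the control against 67.8 and 61.8 in cordycepin. Despite those readings Spsb1 was detected on only 1 control array, and on both cordycepin arrays. Spryd4 had a log2 ratio of -2.27 and Spsb4 one of -1.75. Quantile normalization left 5 of the 6 called, and 2 of the 6 were called without cordycepin array 1 and likewise without cordycepin array 2. The EVH1 list had 1 lower gene without cordycepin array 2.

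**Figure D4:**
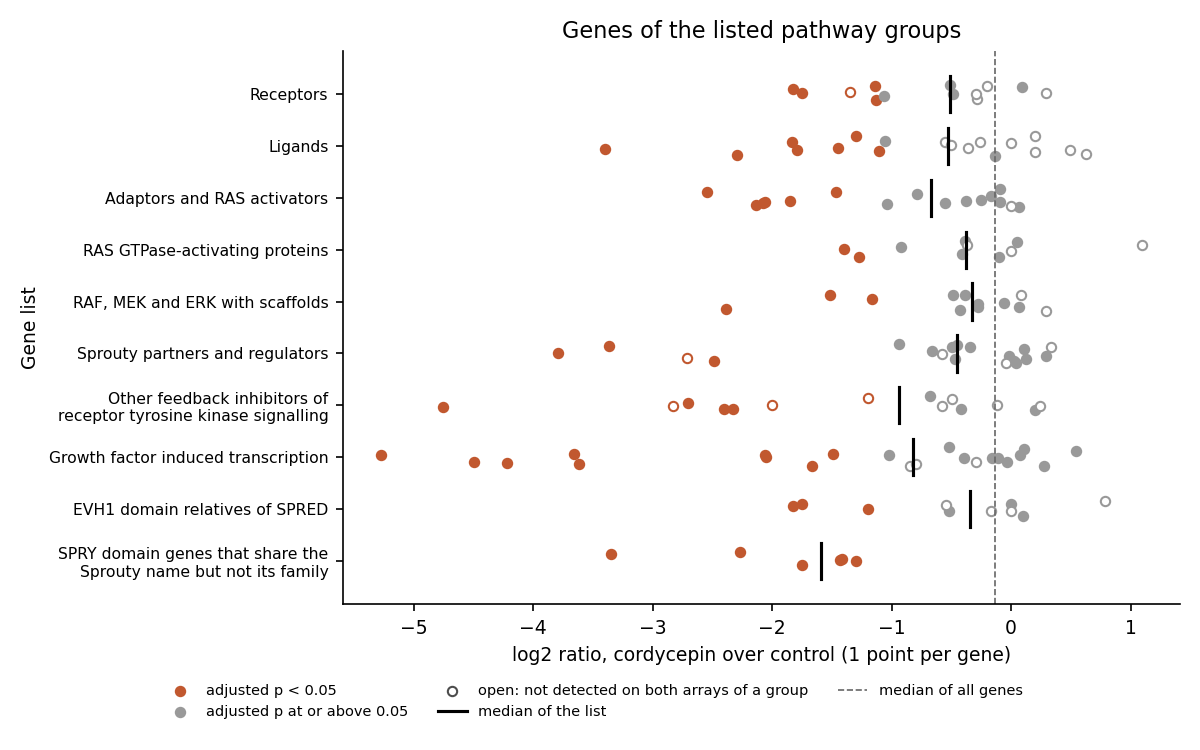
Log2 ratio of cordycepin over control (horizontal axis) of each tested gene of the 10 lists (rows), orange where the adjusted p was under 0.05 and open where the gene was not detected on both arrays of a group. Black bars give the list medians, all below the dashed median of all genes at -0.13, and the orange points lie at or below -1.11 in every row.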

How the data were processed

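RNA of vehicle control and cordycepin-treated MA-10 cells was hybridized to Mouse OneArray arrays, 2 per group. The authors deposited a raw intensity and a normalized intensity per probe and array. Raw values were whole numbers with a few below 0, so some background had been subtracted, and the normalized intensity was the raw one times 1 constant per array (0.888 to 1.14), by a method not given in the sources used here. The detection p-value of each probe was deposited by the authors. Their averages, coefficients of variation, log2 ratio and p-value of the comparison were not used. The labels describe reverse transcription from oligo-dT primers, which pair with the poly(A) tail of an RNA. A lower reading from less RNA thus cannot be told apart here from one due to a shorter or missing tail, and this was not tested.

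Log2 normalized intensities were fitted in R 4.3.3 with limma 3.58.1 (lmFit, eBayes). The 2104 probes at or below 0 on some array were left out, and p-values were adjusted over the rest. Of the probes, 22553 had 1 gene symbol. Where neither cordycepin array detected a probe, the fold used the dimmest detected value of each array, or the probe's own if higher. Detection differed between probes of like brightness. Each fold given as "at least" therefore holds only if the probe's own limit was no higher. From each list the up to 3 called genes of largest ratio detected on both arrays of a group were named, except that the values of some are not reported here. All 6 members matched the reference gene table by their Entrez identifiers. Members, lists, motifs and tests were chosen with earlier results of these data known. The fit was tested on simulated data with less noise than the spread pooled in the reported fit, so that test does not bear on the calls given here. Alternatives covered 5 scalings, 1 of them added after the data were seen, filters on dim probes, a floor, other tests and each array left out in turn.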

Additional observations from a re-analysis of the deposited data

How the results depend on the processing

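Spry2 stayed below 0 in every setting, from -3.93 to -2.43, and was called in all but the methods' t-test. That test called 0 probes after adjustment, whereas before adjustment 2946 were lower and 222 higher at p under 0.05. There the listed genes gave 0 lower, the members 0 lower, and the ratios of -3.47 for Spry2, -1.27 for Spred1 and -1.10 for Spred3 had adjusted p of 0.32, 0.37 and 0.41. After median centring of the arrays, 4974 probes and 17 listed genes were higher, and the ratios of Spry4 and Spred2 turned to 0.071 and 0.032. With quantile-normalized raw intensities, 5253 probes and 22 listed genes were higher, and the ratios of Spry4 and Spred2 turned to 0.035 and 0.0024. With raw intensities without the constants, Spred3 was not called (-1.09). Centring on the ribosomal protein genes gave 10539 lower probes, 98 lower and 1 higher listed genes, and called Spred2 at -0.63. Among detected probes alone, 153 were higher. With values raised to the lowest detected intensity, 147 probes and 1 listed gene were higher, and Spry1 and Spred3 both turned to 0.028. With an intensity trend 1 listed gene was higher. Centring on the detected probes, a setting added after the data were seen, gave 8575 higher probes, 45 higher listed genes and 2 higher members, Spry4 at 0.56 and Spred2 at 0.52. Leaving out 1 array gave 1548 to 6569 lower and 77 to 2183 higher probes, 1 to 3 lower members, 30 to 77 lower and 0 to 4 higher listed genes, and ratios from -1.54 to -0.997 for Spred1 and from -1.33 to -0.86 for Spred3. The cause of these shifts was not tested. No paired analysis was possible because the labels number the arrays in 1 series and tie none of them across the groups. Readings near or under the lowest detected intensity, those of 5 of the 6 members in cordycepin, limit what can be said of them.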
